A study of Homo sapiens with 12 samples.

Results

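The transcripts of the mitochondrial genome were followed gene by gene in all 12 libraries of a breast cancer cell line experiment. They were taken as every row of the deposited count table whose gene symbol starts with MT-, which gave 37 of 60660 genes, namely 13 mRNAs, 2 rRNAs and 22 tRNAs. RNA was measured by sequencing in cells labelled HS578T, an established breast cancer line, in 4 groups of 3 libraries. Cells labelled wild type for the short arm of chromosome 17 (17p), whose titles name Cas9, received DMSO, the vehicle, or 170 nM doxorubicin for 48 h, and are called intact here. Cells labelled as having 1 copy of 17p knocked out received DMSO or 1 µM doxorubicin for 48 h, and are called deleted. Doxorubicin is an anthracycline that intercalates into DNA and poisons topoisomerase II.

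The dose of doxorubicin changes with the genotype label, so the effects of dose and genotype label cannot be told apart in any comparison of the treated groups. Neither a clonal origin of the cells labelled deleted nor separate cultures behind the replicates are stated in the labels. The p-values are thus relative to the spread among these libraries, whether technical or biological.

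Human mitochondrial DNA is a small circle that encodes core subunits of the respiratory chain together with the rRNAs and tRNAs of the mitochondrial ribosome. Both of its strands are transcribed by a dedicated RNA polymerase into long precursors that cross most of the circle. Enzymes then cut the tRNAs out of these precursors, which frees the mRNAs and rRNAs between them. Most genes are read in the forward direction of the reference, and MT-ND6 is the only mRNA of the reverse direction. The steady level of each RNA thus depends on its cutting and decay as well as on transcription. In bulk RNA, fewer cells of a kind and less RNA per cell cannot be told apart.

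What the count of a mitochondrial gene holds depends on how reads touching 2 genes were treated. Over the whole table, 350 genes lie within the exons of 1 other expressed gene of the same strand, and 346 of these (98.9%) had 0 counts in all libraries. Of 335 genes lying in this way on the opposite strand, 48 (14.3%) had 0 counts, and the median was 20 counts over the 12 libraries. These values show that strand was used in the counting and that reads touching 2 genes of a strand were left out. Mitochondrial genes lie nearly end to end, and each of the 22 tRNA genes is shorter than a read of 100 bases, with lengths from 59 to 75 bases. The 10 tRNA genes whose neighbours on the same strand lie within 31 bases on both sides had at most 7 counts in any library, and 5 of them (MT-TG, MT-TR, MT-TH, MT-TS2 and MT-TL2) had 0 in all 12. The other 5 of these were MT-TV, MT-TL1, MT-TK, MT-TN and MT-TC. The 12 tRNA genes with at least 50 bases free of genes on 1 side, on their own strand, or with no further gene there, had up to 2059 counts. These were MT-TF, MT-TI, MT-TQ, MT-TM, MT-TW, MT-TA, MT-TY, MT-TS1, MT-TD, MT-TE, MT-TT and MT-TP. A count of a mitochondrial tRNA gene is therefore no measure of mature tRNA. It may include reads from longer RNAs that run into the gene-free side.

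The tRNA genes that the results turn on are shown here with their anticodon in capitals, as DNA letters of the reference, 5′ to 3′ on the strand of the gene. MT-TG, which lies directly between MT-CO3 and MT-ND3 and had 0 counts, is shown for contrast. Sequences and positions are from GENCODE 29 on hg38, and were not read from these cells. The anticodon was located as the 3 bases that carry the expected letters in the loop of a paired stem.
MT-TM (methionine, chrM:4402-4469, forward): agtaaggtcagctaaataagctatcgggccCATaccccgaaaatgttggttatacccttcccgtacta
MT-TW (tryptophan, chrM:5512-5579, forward): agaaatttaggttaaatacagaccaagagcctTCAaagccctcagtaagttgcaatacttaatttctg
MT-TP (proline, chrM:15956-16023, reverse): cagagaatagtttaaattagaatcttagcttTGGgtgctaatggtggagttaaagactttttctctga
MT-TA (alanine, chrM:5587-5655, reverse): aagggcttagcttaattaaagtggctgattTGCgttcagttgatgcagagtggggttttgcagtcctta
MT-TY (tyrosine, chrM:5826-5891, reverse): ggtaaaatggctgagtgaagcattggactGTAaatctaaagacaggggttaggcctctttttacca
MT-TG (glycine, chrM:9991-10058, forward): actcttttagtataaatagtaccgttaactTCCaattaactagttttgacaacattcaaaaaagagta

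The mRNA genes overlap in places as well. MT-ATP8 and MT-ATP6, which encode subunits of the ATP synthase, share 46 bases, MT-ND4L and MT-ND4 share 7 bases, and MT-ATP6 and MT-CO3 share 1 base. Reads that touch such bases were not assigned to either gene, so the levels of these genes are lower bounds. The same holds for reads that run from 1 gene into an adjoining one, as at both ends of MT-ND3 (346 bases). This loss weighs more in a short gene. MT-ATP8 is printed whole, with the bases it shares with MT-ATP6 in capitals, because these make up so much of so short a gene.
MT-ATP8 (chrM:8366-8572, forward): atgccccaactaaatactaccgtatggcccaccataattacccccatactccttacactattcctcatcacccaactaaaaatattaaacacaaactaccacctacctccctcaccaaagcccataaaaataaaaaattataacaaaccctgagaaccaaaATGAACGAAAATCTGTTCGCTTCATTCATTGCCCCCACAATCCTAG

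The libraries held 66150539 to 99142099 counts each, of which 1770824 to 5434620 were mitochondrial. Levels are given as CPM, counts scaled to a library of 1000000. For the 5 tRNA genes without a count, the upper limit of 3 counts came to between 0.0303 and 0.0454 CPM by library, for counting error only. In 12 of 12 libraries, transcripts tied to single chromosomes went against the recorded karyotype of HS578T, and the name is used here as a label. VIM, FN1 and SPARC, which mark mesenchymal cells, were at 1006 to 2565, 1346 to 2372 and 469.5 to 1290 CPM, and KRT8 and KRT18, keratins of epithelial cells, at 236 to 382 and 123 to 257 CPM. The epithelial markers EPCAM and CDH1 and the hormone receptor genes ESR1 and PGR stayed under 0.5 CPM, and the 5 blood and 3 endothelial markers at or under 1.15 CPM. ERBB2, the gene of HER2, was at 67.9 to 116 CPM. As a check of the labelled deletion, 399 genes of 17p had a median log2 fold change, deleted over intact, of -0.12 in DMSO and -0.04 in doxorubicin, against 0.04 and 0.02 for all other genes. The gap of -0.17 and -0.06 is far from the -1 that RNA in proportion to 1 of 2 copies would give. The check does not bear out the labelled deletion, and intact and deleted, here and below, name libraries by their label only.

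Mitochondrial RNA made up a similar share of counts in 10 of the 12 libraries, and the 2 exceptions came from different groups. The 37 genes took 3.30, 2.61 and 3.47% of the counts in intact DMSO replicates 1 to 3. They took 2.68, 6.90 and 3.34% in deleted DMSO, 5.54, 3.57 and 3.16% in intact doxorubicin, and 3.11, 3.16 and 3.41% in deleted doxorubicin. Replicate 2 of deleted DMSO and replicate 1 of intact doxorubicin stood apart, while the other 10 libraries lay between 2.61 and 3.57%. The group means were 3.13% ± 0.456 (SD, n = 3) in intact DMSO, 4.31% ± 2.27 in deleted DMSO, 4.09% ± 1.27 in intact doxorubicin and 3.23% ± 0.161 in deleted doxorubicin. All 4 groups overlapped, and the group means differed by less than the spread within the groups that hold the 2 high libraries.

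**Figure D1:**
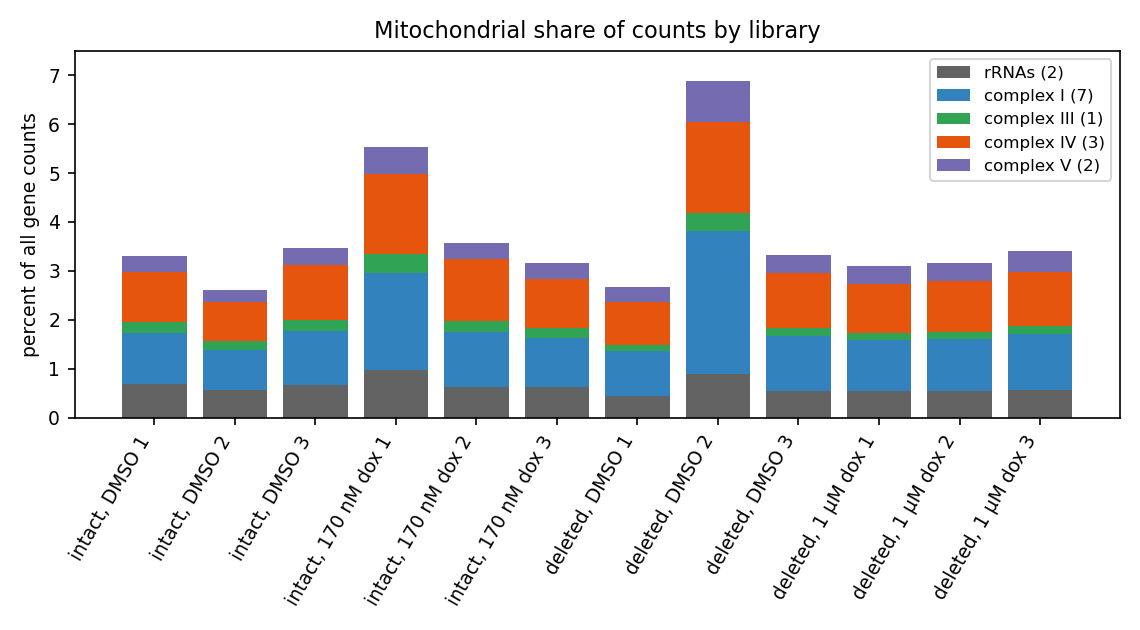
Percent of all gene counts that were mitochondrial in each of the 12 libraries, as stacked bars of the 2 rRNAs and of the mRNAs by respiratory complex; the tRNAs, at most 0.0107% of all counts, are too small to draw. Replicate 2 of deleted DMSO (6.90%) and replicate 1 of intact doxorubicin (5.54%) stand above the other 10 libraries, and the segment of complex I takes the largest share of their excess.

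Most mitochondrial counts came from mRNAs. Any removal of rRNA during library preparation would lower the rRNA counts, and this was not tested. The split is thus one of counts and not of RNA in the cells. Of the mitochondrial counts, 78.1 to 86.8% fell on the 13 mRNAs, 13.02 to 21.7% on the 2 rRNAs and 0.0826 to 0.223% on the 22 tRNA genes. The 7 subunit genes of complex I, which oxidizes NADH, held 31.4 to 42.2%. The 3 genes of complex IV, cytochrome c oxidase, held 27.2 to 35.3%, and the 2 genes of complex V, the ATP synthase, held 8.995 to 12.3%. The single gene of complex III, the cytochrome bc1 complex, held 4.25 to 7.005%. The tRNA share was 0.0826 to 0.142% in the 6 intact libraries and 0.155 to 0.223% in the 6 deleted ones, with no overlap between the labels.

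To compare levels between genes, CPM was divided by gene length in kilobases. Reads left out at gene ends were not corrected for. On this scale, MT-ATP8 (ENSG00000228253.1) had the highest mean over the 12 libraries, at 4958 CPM per kb, followed by MT-CO1 at 4632, MT-ATP6 at 4345 and the large rRNA MT-RNR2 at 3500. MT-ND4 at 3226, MT-CO2 at 3068 and MT-CO3 at 2956 came next, then MT-ND1 at 2564, MT-ND2 at 2097, MT-ND4L at 2085 and MT-CYB at 1891. MT-ND5 at 1217, MT-ND3 at 1166, the small rRNA MT-RNR1 at 984 and MT-ND6 at 789 CPM per kb were the lowest of the 15 rRNA and mRNA genes. The order was not fixed between all neighbours. MT-ND1 was above MT-ND2, and MT-CYB above MT-ND5, in 12 of 12 libraries. MT-ND4 was above MT-CO2, MT-CO2 above MT-CO3 and MT-ND4L above MT-CYB in only 6 of 12, so these pairs could not be ordered. Over the 10 libraries without the 2 of high share, MT-ND3 (889) came below MT-RNR1 (939.6), and MT-CO2 (2741) and MT-CO3 (2662) above MT-ND4 (2585). By the median of 12 libraries, MT-CO1 (4422) was above MT-ATP8 (4384). The 12 tRNA genes that passed the filter on low counts ran from 196 CPM per kb for MT-TP down to 3.03 for MT-TF, and 5 more with counts lay below these.

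**Figure D2:**
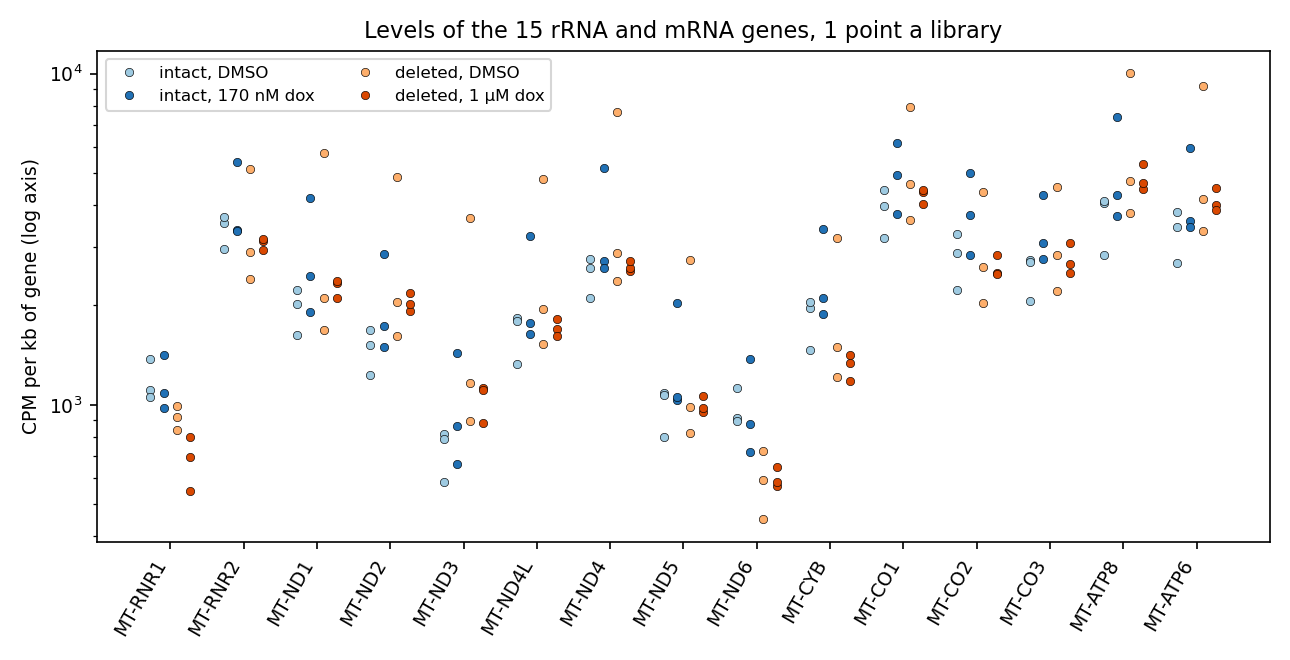
Level of the 2 rRNAs and 13 mRNAs in CPM per kb of gene on a log axis, 1 point a library, with the 4 groups side by side from left to right as in the key. The isolated upper points of most forward-strand genes are replicate 2 of deleted DMSO and replicate 1 of intact doxorubicin, and MT-RNR1 and MT-ND6 lack an isolated upper point in deleted DMSO.

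MT-RNR1 and MT-RNR2 encode the rRNAs of the small and the large mitochondrial ribosomal subunit, and lie first on the forward precursor. MT-RNR1 (ENSG00000211459.2, chrM:648-1601) was at 1308, 1055 and 1004 CPM in intact DMSO, 800.0, 945 and 876 CPM in deleted DMSO, 1352, 933 and 1037 CPM in intact doxorubicin, and 764, 523 and 663 CPM in deleted doxorubicin. All 3 deleted libraries were below all 3 intact ones within each treatment. MT-RNR2 (ENSG00000210082.2, chrM:1671-3229) was at 5520, 4610 and 5739 CPM in intact DMSO, 3732, 8036 and 4519 CPM in deleted DMSO, 8454, 5241 and 5237 CPM in intact doxorubicin, and 4589, 4879 and 4929 CPM in deleted doxorubicin. The groups overlapped in DMSO, where 1 deleted library held the highest level, and did not overlap in doxorubicin. Per kilobase MT-RNR2 stood 2.58 to 5.71 times above MT-RNR1. The part that any removal of rRNA during library preparation had in these levels and in their ratio was not tested.

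MT-CO1 encodes the catalytic subunit of cytochrome c oxidase. MT-CO1 (ENSG00000198804.2, chrM:5904-7445) was at 6134, 4913 and 6880 CPM in intact DMSO, 5572, 12196 and 7145 CPM in deleted DMSO, 9535, 7647 and 5803 CPM in intact doxorubicin, and 6240, 6780 and 6858 CPM in deleted doxorubicin. Groups overlapped in both treatments. MT-ATP8 was at 841, 587 and 852 CPM in intact DMSO, 785, 2080 and 979 CPM in deleted DMSO, 1533, 771 and 890 CPM in intact doxorubicin, and 926, 967 and 1106 CPM in deleted doxorubicin. Its groups also overlapped in both treatments.

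MT-CYB (ENSG00000198727.2, chrM:14747-15887) encodes cytochrome b, the mitochondrial subunit of complex III. It was at 2243, 1667 and 2337 CPM in intact DMSO, 1383, 3644 and 1708 CPM in deleted DMSO, 3883, 2397 and 2144 CPM in intact doxorubicin, and 1526, 1342 and 1617 CPM in deleted doxorubicin. In doxorubicin all deleted libraries were below all intact ones, while in DMSO the high library of the deleted group stood above the intact range.

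MT-ND6 (ENSG00000198695.2, chrM:14149-14673, reverse strand) encodes a membrane subunit of complex I. It was at 591, 478 and 470 CPM in intact DMSO, 237, 311 and 381 CPM in deleted DMSO, 460, 722 and 377 CPM in intact doxorubicin, and 341, 298 and 307 CPM in deleted doxorubicin. The deleted libraries were below the intact ones in both treatments, and the 2 libraries of high mitochondrial share did not stand out. Per kilobase, MT-ND6 was at 46.7, 49.4 and 34.9% of the mean of the 12 forward-strand mRNAs in intact DMSO and at 21.5, 10.3 and 27.5% in deleted DMSO. In doxorubicin it was at 20.5, 52.2 and 30.3% in intact and 26.5, 23.1 and 21.3% in deleted libraries.

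The other subunit genes of complex I that the comparisons single out are MT-ND1, MT-ND2 and MT-ND3, all of the forward strand. MT-ND3 (ENSG00000198840.2, chrM:10059-10404) was at 282, 203 and 273 CPM in intact DMSO, 310.0, 1269.5 and 402 CPM in deleted DMSO, 495, 298 and 229.6 CPM in intact doxorubicin, and 390.0, 306 and 384 CPM in deleted doxorubicin. Its deleted libraries were all above the intact ones in DMSO, by a wide margin only in replicate 2, and the groups overlapped in doxorubicin. MT-ND1 (ENSG00000198888.2, chrM:3307-4262) was at 1921, 1556 and 2124 CPM in intact DMSO, 1613, 5509 and 2006 CPM in deleted DMSO, 4015, 2344 and 1819 CPM in intact doxorubicin, and 2014, 2223 and 2266 CPM in deleted doxorubicin. MT-ND1 groups overlapped in both treatments.

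The 2 libraries of high share did not gain all transcripts alike. In replicate 2 of deleted DMSO, the ratio of CPM to the mean of the other 2 libraries of its group was 3.57 for MT-ND3, 3.04 for MT-ND1, 3.03 for MT-ND5 and 2.92 for MT-ND4. It was 1.92 for MT-CO1, 1.95 for MT-RNR2, 1.13 for MT-RNR1 and 1.01 for MT-ND6. In replicate 1 of intact doxorubicin the same ratio was 1.96 for MT-ND4, 1.93 for MT-ND1, 1.37 for MT-RNR1 and 0.836 for MT-ND6. Forward-strand rRNAs and mRNAs thus ran from 1.13 to 3.57 (median 2.40) in the first and from 1.37 to 1.96 (median 1.74) in the second, and MT-ND6, of the other strand, was near or below its partners in both. The tRNA genes did not divide cleanly by strand. On the reverse strand they ran from MT-TE (0.808 in the first library) to MT-TA (1.93 and 1.38), with MT-TP at 1.63 and 1.34, and on the forward strand from MT-TW (1.49 and 0.998) to MT-TM (3.35 and 2.27).

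Over the 15 rRNA and mRNA genes the ratios of the 2 libraries had a Pearson r of 0.893 and a Spearman rho of 0.921. Without MT-ND6 and MT-RNR1 these were 0.870 and 0.879 over 13 genes. The points share the precursor and the library, so these values are a description. Other measures also differed in these libraries. Across all genes, the deviation from the group mean had a Spearman rho with GC content of -0.501 in replicate 2 of deleted DMSO and -0.436 in replicate 1 of intact doxorubicin, against -0.161 to 0.474 in the others. The 0.474 was that of replicate 2 of intact doxorubicin, whose mitochondrial share was 3.57%. Each group mean is over 3 libraries, so a trend in 1 library brings the opposite trend in its partners. Among the 15 genes themselves the ratio had a Pearson r with GC content of only -0.206 and -0.112. Counts on 404 rows for nuclear copies of mitochondrial genes were expressed as a percent of mitochondrial counts. They were 1.99 and 1.26% in the 2 libraries of high share and 0.582 to 0.955% elsewhere. MTATP6P1, a nuclear copy of a stretch that holds MT-ATP6, was at 1224 and 583 CPM in them and 124 to 248 CPM in the other 10. The part of these differences in the mitochondrial values was not tested.

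**Figure D3:**
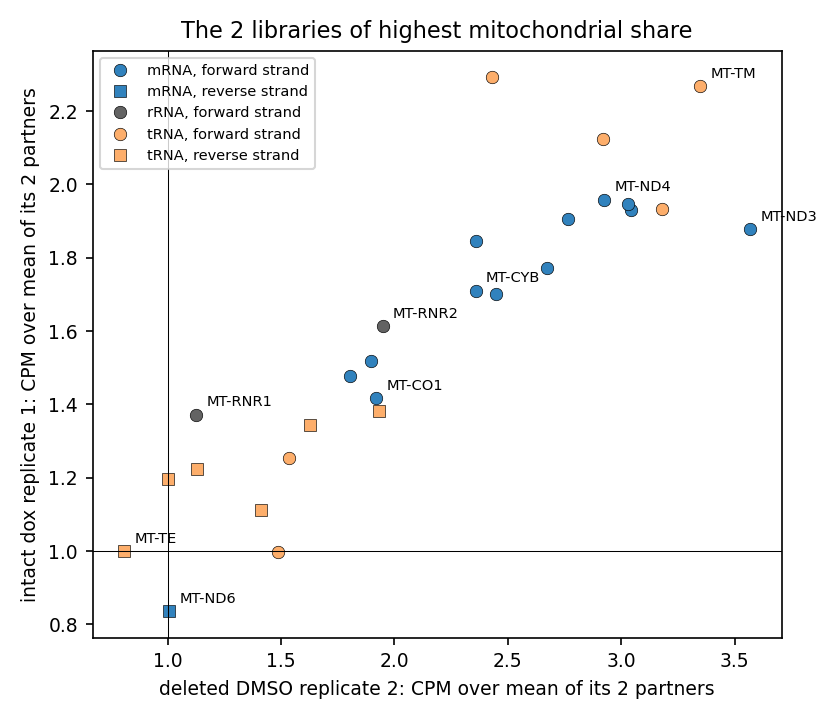
For each of the 27 mitochondrial genes with enough counts, CPM in replicate 2 of deleted DMSO (horizontal) and in replicate 1 of intact doxorubicin (vertical), each divided by the mean of the other 2 libraries of its group. Forward-strand rRNAs and mRNAs lie above 1 on both axes, from MT-RNR1 (1.13 and 1.37) to MT-ND3 (3.57 and 1.88), while MT-ND6 of the reverse strand lies at 1.01 and 0.836.

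Because the 2 libraries shift the level of most members together, the make-up of the mitochondrial RNA was also described, as each gene's percent of the mitochondrial counts of its library. These percentages sum to 100, so that a rise in 1 gene lowers others. Of the 27 genes with enough counts, 9 took a larger share in all 6 deleted libraries than in any of the 6 intact ones, and 2 took a smaller share. No other genes have a value on this scale, so these counts have no background beside them and are a description. The larger shares were those of 4 mRNAs (MT-ND2, MT-ND3, MT-ATP6 and MT-ATP8) and 5 tRNAs (MT-TI, MT-TM, MT-TW, MT-TD and MT-TP). The smaller shares were those of MT-CYB and MT-CO2, and both rRNAs overlapped.

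MT-ND2 held 4.79 to 5.37% of mitochondrial counts in intact and 6.27 to 7.37% in deleted libraries (medians 4.99 and 6.54%). MT-ATP6 held 6.84 to 7.51% against 8.36 to 9.10%, MT-ATP8 2.16 to 2.82% against 2.93 to 3.24%, and MT-ND3 0.727 to 0.894% against 0.968 to 1.84%. MT-CYB held 6.39 to 7.005% in intact and 4.25 to 5.28% in deleted libraries, and MT-CO2, a further subunit gene of cytochrome c oxidase, 5.83 to 7.18% against 4.36 to 5.67%. These separations include the 2 libraries of high share on both sides. By CPM, only MT-TM, MT-TW, MT-TD and MT-TP separated the 6 deleted from the 6 intact libraries, all of them higher in deleted, and 0 of 27 were lower. Among all 21803 genes tested, 13% were higher and 10.1% lower in this way, so 4 of 27 is near the background.

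**Figure D4:**
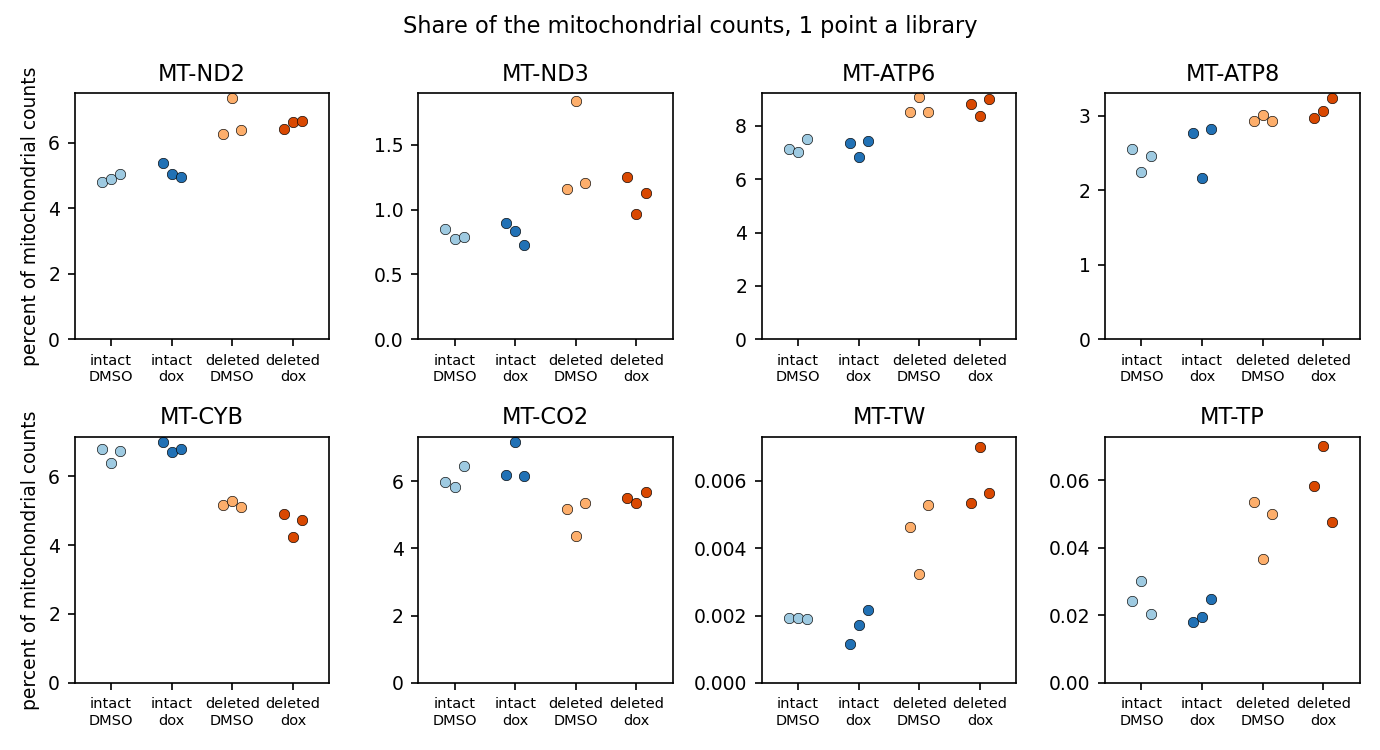
Percent of the mitochondrial counts held by 6 protein genes and 2 tRNA genes, 1 point a library, in the 4 groups. In each panel the 6 deleted libraries do not overlap with the 6 intact ones; MT-CYB (4.25 to 5.28% against 6.39 to 7.005%) and MT-CO2 are lower in deleted libraries and the other 6 genes higher.

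The tests compared the groups in 1 edgeR quasi-likelihood fit over all 21803 genes that passed a filter on low counts. The log2 fold changes have a standard error (SE), and p-values were adjusted over all these genes by the Benjamini-Hochberg method, with a threshold of 0.05. Of the 37 members 27 passed the filter, namely the 13 mRNAs, the 2 rRNAs and the 12 tRNA genes with a gene-free side. The comparisons share libraries, so their values are given side by side and not as independent results. Fits without the 2 libraries of high share leave out libraries chosen by the members' own values. Their SE and adjusted p for the members can thus be too small, and are a description.

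In DMSO, most mitochondrial genes past the threshold between cells labelled deleted and intact were tRNA genes. Of the 27 genes tested 9 were higher and 1 was lower in the deleted libraries, against 18.8% higher and 16.2% lower among all genes. The higher ones were 7 of 12 tRNA genes and 2 of 13 mRNAs, while 0 of 2 rRNAs passed in the edgeR fit, and 0 had an unadjusted p under 0.05. The median log2 fold change was 0.98 over the tRNAs and 0.77 over the mRNAs, against 0.04 over all genes tested. Without the 2 libraries of high share the median was 0.91 over the tRNAs and 0.02 over the mRNAs.

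The tRNA gene with the highest fold change was MT-TM, which encodes the methionine tRNA used both to start and to extend proteins. It was at 1.09, 0.999 and 1.34 CPM in intact DMSO and 3.17, 11.3 and 3.59 CPM in deleted DMSO, with no overlap, a log2 fold change of 2.46 (SE 0.48, edgeR adjusted p = 0.00141). Without the 2 libraries of high share it was 1.51 (SE 0.19, edgeR adjusted p = 2.60e-05). MT-TW was at 0.637, 0.4995 and 0.661 CPM against 1.24, 2.23 and 1.76 CPM, a log2 fold change of 1.58 (SE 0.25, edgeR adjusted p = 3.24e-04). MT-TP, the tRNA gene with the highest level per length, was at 7.95, 7.87 and 7.07 CPM against 14.3, 25.2 and 16.7 CPM, a log2 fold change of 1.34 (SE 0.22, edgeR adjusted p = 4.07e-04). Each of these 3 had all deleted libraries above all intact ones.

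The remaining tRNA calls in DMSO were MT-TD at 2.24 (SE 0.45), MT-TI at 1.87 (SE 0.42), MT-TS1 at 0.98 (SE 0.25) and MT-TE at 0.98 (SE 0.21), on the log2 scale. With the 2 libraries of high share left out, MT-TD was at 1.33 and MT-TI at 1.04. MT-TM, MT-TD, MT-TI and MT-TW lie on the forward strand, and MT-TP, MT-TS1 and MT-TE on the reverse strand, so the calls came from both strands. MT-TI and MT-TM border the same stretch of 70 bases free of genes on their strand. MT-TE and MT-TP likewise border the same stretch of 1213 bases, so these calls may not be separate. The lowest tRNA value was that of MT-TQ, at 7.75, 6.91 and 6.45 CPM in intact and 3.69, 6.46 and 5.46 CPM in deleted DMSO (-0.39, SE 0.21, edgeR adjusted p = 0.163). These tRNA groups overlapped, as did those of MT-TF, which had the fewest counts of the genes tested. MT-TF was at 0.159, 0.191 and 0.269 CPM in intact and 0.0756, 0.267 and 0.144 CPM in deleted DMSO.

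Of the mRNAs in DMSO, MT-ND3 had the highest log2 fold change, 1.46 (SE 0.45, edgeR adjusted p = 0.0220), and MT-ND2 passed at 1.01 (SE 0.36, edgeR adjusted p = 0.0436). Without replicate 2 of deleted DMSO, MT-ND3 was at 0.45 (edgeR adjusted p = 0.183) and MT-ND2 at 0.27 (edgeR adjusted p = 0.372). Leaving out any 1 of the 3 intact DMSO libraries also made both miss the threshold, with edgeR adjusted p from 0.0508 to 0.156. MT-ND2 further missed it without replicate 2 of intact doxorubicin or any 1 of the deleted doxorubicin libraries (edgeR adjusted p from 0.0506 to 0.0733). MT-ND6 had the lowest value and was the only mRNA that fell, by 0.70 (SE 0.21, edgeR adjusted p = 0.0189). Its call was lost without replicate 1 of intact DMSO (-0.58, edgeR adjusted p = 0.0837) and without replicate 1 of deleted DMSO (-0.53, edgeR adjusted p = 0.0794).

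Leaving out both libraries of high share changed the values of the rRNAs and mRNAs in DMSO. The choice of these libraries by the members' values narrows the spread of the members. The SE of MT-RNR2, for one, was 0.27 with all libraries and 0.10 without the 2. The calls of this fit are thus a description. In it 8 of 27 were higher and 5 lower, against 18.2% higher and 18.6% lower among all genes. MT-RNR2 was at -0.41 (SE 0.10, edgeR adjusted p = 0.00612) against 0.09 with all libraries, MT-RNR1 at -0.47 (SE 0.15, edgeR adjusted p = 0.0214) against -0.33, and MT-CYB at -0.48 (SE 0.14, edgeR adjusted p = 0.0159) against 0.17. MT-ND6 was at -0.78 and MT-TQ at -0.66 on the log2 scale, both past the threshold. The higher genes were then the same 7 tRNAs as with all libraries and MT-ND3, at 0.44 (edgeR adjusted p = 0.0477).

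**Figure D5:**
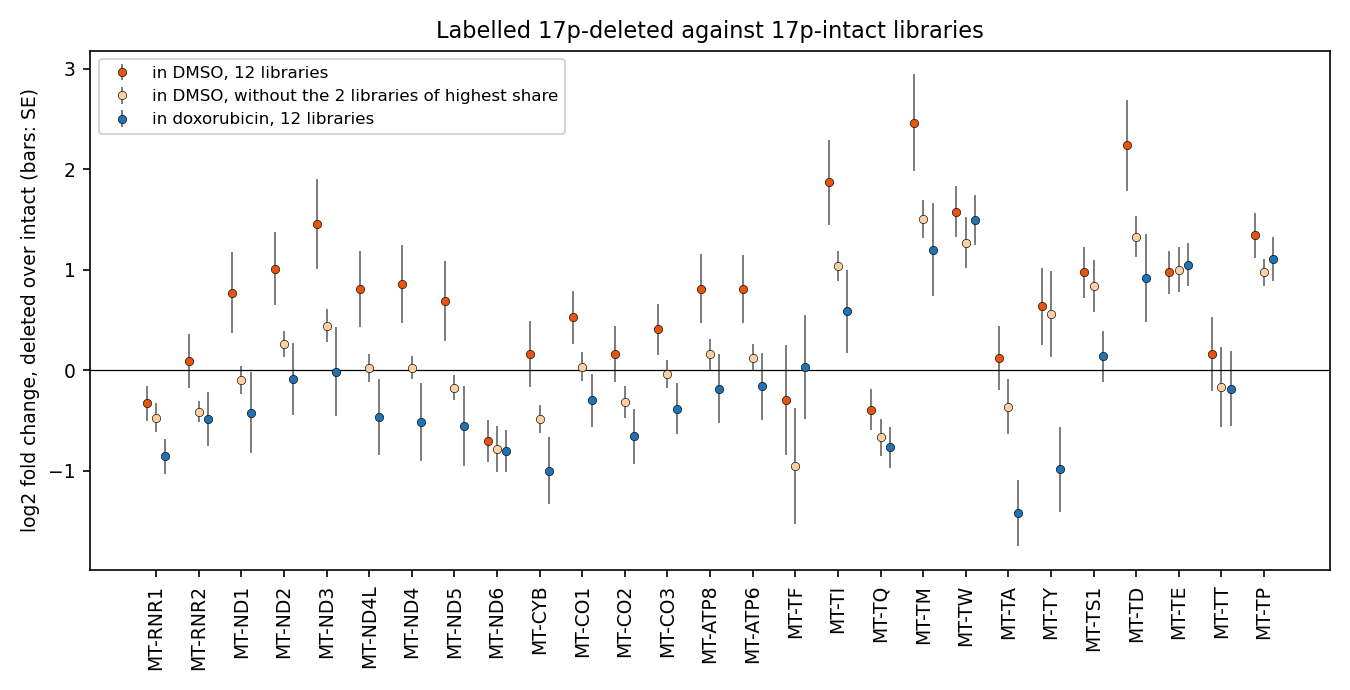
Log2 fold change of deleted over intact libraries with SE for the 27 genes tested, in DMSO with all libraries, in DMSO without the 2 libraries of high mitochondrial share, and in doxorubicin. MT-TM, MT-TW, MT-TE, MT-TP, MT-TI, MT-TD and MT-TS1 are above 0 in each series and MT-RNR1, MT-ND6 and MT-TQ below 0. MT-RNR2 and MT-CYB are above 0 in DMSO only when the 2 libraries are included.

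In doxorubicin, where the cells labelled deleted also had the higher dose, genes fell and rose in nearly equal number. Of the 27 genes 4 were higher and 5 lower in deleted libraries, against 25.9% higher and 21.9% lower among all genes. The share of lower members is near that of all genes. All 4 that rose were tRNA genes, MT-TW at 1.49 (SE 0.25), MT-TM at 1.20 (SE 0.46), MT-TP at 1.11 (SE 0.22) and MT-TE at 1.05 (SE 0.22). Those that fell were the rRNA MT-RNR1, the mRNAs MT-CYB and MT-ND6 and the tRNAs MT-TA and MT-TQ. MT-TA and MT-TQ border the same stretch of 1186 bases free of genes on their strand, and MT-TE and MT-TP share one as well. The calls within each pair may thus not be separate. The median log2 fold change was -0.42 over the 13 mRNAs, 0.36 over the 12 tRNAs and 0.02 over all genes.

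MT-CYB had the lowest value of the mRNAs in this comparison, a log2 fold change of -0.999 (SE 0.33, edgeR adjusted p = 0.0233). It missed the threshold without replicate 1 of intact doxorubicin (-0.71, edgeR adjusted p = 0.0874) and without replicate 2 of deleted doxorubicin (-0.96, edgeR adjusted p = 0.0681). MT-RNR1 was at -0.86 (SE 0.17, edgeR adjusted p = 0.00112) and MT-ND6 at -0.80 (SE 0.21, edgeR adjusted p = 0.00606). MT-ND3 had the highest value of the mRNAs, at -0.01 (SE 0.44). MT-TW, with the highest value of all, was at 0.647, 0.6098 and 0.686 CPM in intact and 1.66, 2.22 and 1.93 CPM in deleted doxorubicin, with no overlap (edgeR adjusted p = 2.32e-04). MT-TM was at 2.72, 1.22 and 1.18 CPM against 4.31, 3.62 and 4.57 CPM (edgeR adjusted p = 0.0459). Although its groups did not overlap, MT-TM missed the threshold without replicate 2 or 3 of intact doxorubicin, or without any 1 of the intact DMSO or deleted doxorubicin libraries (edgeR adjusted p from 0.0568 to 0.155).

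MT-TA was the member with the lowest value of the treated comparison. It was at 2.15, 1.63 and 1.47 CPM in intact and 0.5097, 0.786 and 0.775 CPM in deleted doxorubicin, a log2 fold change of -1.42 (SE 0.33, edgeR adjusted p = 0.00293). MT-TP was at 9.92, 6.903 and 7.87 CPM against 18.1, 22.2 and 16.2 CPM, and MT-TQ at 8.42, 8.85 and 6.27 CPM against 4.601, 5.52 and 4.53 CPM. The groups of these 3 genes did not overlap. MT-TF, at 0.378, 0.159 and 0.171 CPM against 0.209, 0.323 and 0.237 CPM, overlapped. Without the 2 libraries of high share, 6 of the 27 were higher and 6 lower, against 26.1% and 25.8% of all genes in that fit. MT-TI, MT-TD and MT-CO2 were then past the threshold as well, at 1.02, 1.28 and -0.45, and MT-TM was at 1.68 (edgeR adjusted p = 6.47e-06). Here, too, the libraries left out were chosen by the members' values.

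At 170 nM, doxorubicin left no mitochondrial gene past the threshold in cells labelled intact by edgeR, with 0 higher and 0 lower of 27. Among all genes 0.0275% were higher and 0.0321% lower. At an unadjusted p under 0.05 there was 1 of 27, MT-TE, at -0.71 (SE 0.22, edgeR adjusted p = 0.233), and DESeq2 called that gene alone (DESeq2 adjusted p = 0.0499). MT-TE was at 9.66, 7.35 and 5.66 CPM in DMSO and 4.37, 4.18 and 4.55 CPM in doxorubicin, with no overlap. The mRNA values ran from 0.09 for MT-ND6 to 0.63 (SE 0.40) for MT-ND1, with a median of 0.52. The treated group holds 1 of the 2 libraries of high share. With no filter on low counts, edgeR called 12 genes in this comparison.

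At 1 µM in cells labelled deleted, 4 tRNA genes fell and 0 of 27 genes rose, against 17.5% higher and 13.1% lower among all genes. The share of lower members is thus near that of all genes. MT-TY and MT-TS1, both among those that fell, border the same stretch of 1554 bases free of genes on their strand. Their calls may thus not be separate. MT-TY was at 1.74, 2.16 and 2.57 CPM in DMSO and 0.392, 0.377 and 0.4305 CPM in doxorubicin, and fell by 2.47 on the log2 scale (SE 0.42, edgeR adjusted p = 4.99e-04). In cells labelled intact the same gene was at 2.64, 0.823 and 0.806 CPM in DMSO and 0.842, 0.842 and 0.565 CPM in doxorubicin (-0.84, SE 0.40, edgeR adjusted p = 0.442). MT-TA was at 0.998, 2.56 and 1.66 CPM in deleted DMSO and fell by 1.39 (SE 0.33, edgeR adjusted p = 0.00595) to the treated levels given above.

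MT-TS1 and MT-TE also fell in cells labelled deleted, by 0.83 (SE 0.25, edgeR adjusted p = 0.0230) and 0.64 (SE 0.21, edgeR adjusted p = 0.0339). Either call was lost without replicate 3 of deleted DMSO, replicate 2 of deleted doxorubicin or replicate 3 of deleted doxorubicin, with edgeR adjusted p from 0.0532 to 0.149. That of MT-TE was also lost without replicate 1 of deleted DMSO (edgeR adjusted p = 0.0726). The mRNAs ran from -0.95 (SE 0.44) for MT-ND3 to -0.01 for MT-ND6, with a median of -0.55 and 0 of 13 past the threshold by edgeR. Without the 2 libraries of high share, 10 of 13 mRNA values changed sign, their median was 0.12, and MT-ND3 was at 0.02. At an unadjusted p under 0.05 there were 0 of 13 mRNAs and 1 of 2 rRNAs, MT-RNR1 at -0.47 (SE 0.17, edgeR adjusted p = 0.0565). Leaving out replicate 1 of deleted DMSO gave 9 lower, and leaving out replicate 3 of deleted DMSO or replicates 2 or 3 of deleted doxorubicin gave 2.

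The difference between the doxorubicin effects, deleted minus intact, was tested in the same fit, with dose and genotype label changing together. Of 27 genes 0 were higher and 1 was lower, against 10.3% higher and 6.74% lower among all genes. MT-TA had a difference of -1.55 (SE 0.46, edgeR adjusted p = 0.0334), from 0.16 in cells labelled intact to -1.39 in those labelled deleted. It missed the threshold without replicate 2 of deleted DMSO (-1.098, edgeR adjusted p = 0.0616), replicate 1 of intact doxorubicin (-1.35), replicate 2 or 3 of intact DMSO or any 1 of the deleted doxorubicin libraries, with edgeR adjusted p from 0.0569 to 0.0885. The 2 libraries of high share belong to deleted DMSO and intact doxorubicin, the groups subtracted in this difference. A high level in either thus lowers it. MT-TY, with the lowest value, -1.62 (SE 0.57, edgeR adjusted p = 0.0698), did not pass. The mRNAs ran from -1.47 for MT-ND3 to -0.102 for MT-ND6 with a median of -1.095, and 0 of 13 passed by edgeR, with 8 of 13 at an unadjusted p under 0.05. With the 2 libraries of high share left out, they ran from -0.23 to 0.04, with a median of -0.13.

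Nuclear genes that act on mitochondrial DNA and RNA were counted in the same fit. All counts in DMSO stand against 18.8% higher and 16.2% lower among all genes, and those in doxorubicin against 25.9% and 21.9%. Of 9 mitochondrial transcription genes 3 were lower and 0 higher in deleted DMSO libraries (median -0.15), and 6 lower and 0 higher in doxorubicin (median -0.45), against the medians of 0.04 and 0.02 over all genes. MTERF3, a factor that binds mitochondrial DNA, fell by 0.46 and 0.89 on the log2 scale (edgeR adjusted p = 0.00413 and 1.33e-05), and TFB2M, which melts the promoter for the polymerase, by 0.29 and 0.64. POLRMT, the mitochondrial RNA polymerase itself, was at -0.29 (edgeR adjusted p = 0.338) and -0.47 (edgeR adjusted p = 0.0927). TFAM, which packages mitochondrial DNA and helps start transcription, was at 0.32 in DMSO (edgeR adjusted p = 0.0564). Its mean was 167.7 CPM in intact and 204.6 CPM in deleted DMSO, and 160.8 and 245.6 CPM in doxorubicin, higher in deleted.

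Of 26 genes of mitochondrial RNA processing and decay, 5 were higher and 7 lower in DMSO, and 5 higher and 12 lower in doxorubicin, so that the higher ones in DMSO were near the share of all genes. TRMT10C, a subunit of the enzyme that cuts the 5′ ends of mitochondrial tRNAs, had a mean of 34.7 CPM in intact and 14.8 CPM in deleted DMSO, and 33.8 and 9.598 CPM in doxorubicin. Its log2 fold changes were -1.19 (SE 0.12, edgeR adjusted p = 5.48e-06) and -1.90 (SE 0.12, edgeR adjusted p = 3.32e-08). LRPPRC, which stabilizes mitochondrial mRNAs and was the most abundant of those not past the threshold, was at -0.06 and -0.04. Of 19 tRNA synthetase genes, which charge the tRNAs and of which GARS1 and KARS1 also serve the cytosol, 2 were higher and 7 lower in DMSO, and 1 higher and 10 lower in doxorubicin. LARS2, which charges the leucine tRNAs, fell by 0.73 and 0.71. Of 15 genes of mitochondrial DNA maintenance 3 were higher and 6 lower in DMSO, among them TK2, a mitochondrial thymidine kinase, which fell by 1.09, and DNA2, a nuclease and helicase that also acts in the nucleus, which rose by 0.99. In doxorubicin 4 of these 15 genes were higher and 7 lower.

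The nuclear genes for partner subunits of the respiratory chain were counted next. Of 24 such genes 4 were higher and 3 lower in DMSO, with a median of 0.04, equal to that of all genes at 2 decimals. ATP5MC1, a subunit of the rotating ring of the ATP synthase, fell by 1.36 (SE 0.20, edgeR adjusted p = 1.43e-04) and COX5B, a subunit of cytochrome c oxidase, rose by 0.66 (SE 0.14, edgeR adjusted p = 0.00235). Of 21 assembly factors 3 were higher and 10 lower in DMSO. OXA1L, which inserts mitochondrial proteins into the inner membrane, fell by 0.38. Of 8 tested regulators of mitochondrial biogenesis 1 was higher and 2 lower in DMSO, among them YY1, which fell by 0.66.

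At 1 µM doxorubicin in cells labelled deleted, 6 of 13 tested genes of mitophagy and mitochondrial RNA release rose and 1 fell, against 17.5% higher and 13.1% lower among all genes. IFIH1, a cytosolic sensor of double-stranded RNA, rose by 1.74 (SE 0.12, edgeR adjusted p = 1.28e-07) from 7.15 to 24.6 CPM, and RIGI, a related sensor, rose by 1.29. PINK1, the kinase that marks damaged mitochondria, rose by 0.48 there, from a level that was lower in deleted than in intact DMSO libraries by -1.47 on the log2 scale. The 9 lists, one of them of 3 nuclear-retained RNAs, were counted over all tested genes of each and chosen with earlier results known, and none was set against the mitochondrial values by a test.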

How the data were processed

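The deposited values are raw read counts per gene, 1 column a library. The submitters' processing notes name bcl2fastq, STAR 2.7.9a, the hg38 build, and featureCounts from Subread 2.0.1. For the annotation release, the strand mode and the overlap mode, the setting is not given in the sources used here. Libraries were prepared from total RNA with the KAPA RNA Hyper Prep Kit, per the labels' protocols. Symbols, positions and lengths came from GENCODE 29 and the symbol table provided, with a symbol for 60419 and a position for 58429 of 60660 identifiers. Nuclear copies can take reads from mitochondrial genes or give reads to them.

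CPM used the full library totals of 66150539 to 99142099 counts. Genes were filtered with filterByExpr, scaled by TMM and tested with edgeR 4.0.16 (R 4.3.3) by quasi-likelihood in a joint model of 4 groups, with Benjamini-Hochberg adjustment over 21803 genes. Dividing the log2 fold change by the square root of F gave the SE. The fit was tested on simulated counts. Within groups, pairs of libraries differed by a chi-square per degree of freedom of 8.42 to 204, and none was taken as a duplicate.

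The members, lists and alternatives were chosen with earlier results of these data known. Values in every library were given for MT-RNR1, MT-RNR2, MT-CO1, MT-ND6, MT-CYB, MT-ATP8, the mRNA and tRNA with the highest and lowest log2 fold change in a comparison, and the tRNA with the highest and lowest level per length. MT-TE in cells labelled intact was chosen after its values were seen. From each nuclear list the rule took up to 3 genes with the lowest p past the threshold in a comparison and the most abundant one that missed it, of which some are named.

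The alternatives were RLE size factors, library totals, TMM over nuclear genes only, no filter, limma-voom (limma 3.58.1), a filter of 1 CPM in 3 libraries, a replicate block, DESeq2 1.42.0, a fit of only the groups compared, GC trends removed by loess offsets (span 0.5), a 2-fold change as well, leaving out each library, and leaving out the 2 libraries of the highest mitochondrial share together. The last was chosen for a value measured on the members, so its SE and adjusted p for the members can be too small.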

Additional observations from a re-analysis of the deposited data

Results flagged for a closer look

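MT-TA was the 1 mitochondrial gene whose doxorubicin effect differed between cells labelled deleted and intact by a test of the difference itself, with a log2 difference of -1.55 (SE 0.46, edgeR adjusted p = 0.0334). Its level in deleted libraries was 0.998, 2.56 and 1.66 CPM in DMSO and 0.5097, 0.786 and 0.775 CPM in doxorubicin. In intact libraries it was 1.94, 1.41 and 1.61 CPM in DMSO and 2.15, 1.63 and 1.47 CPM in doxorubicin. The doses differed, so dose and genotype label cannot be told apart here. With both high-share libraries left out, the difference was -0.91 (edgeR adjusted p = 0.115).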

How the results depend on the processing

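Of 24 calls of mitochondrial genes over the 5 comparisons, 16 were kept under every alternative fit and 0 changed sign. Asking for a 2-fold change as well leaves 11 of these 16. Of 111 values that were not called, 48 changed sign under some alternative, and 34 were called under one other than the removal of the filter. Without the low-count filter 19 genes were called in DMSO between labels, 12 for doxorubicin in cells labelled intact and 18 in those labelled deleted, 20 in doxorubicin between labels and 20 for the difference, where the main counts were 10, 0, 4, 9 and 1; the cause was not tested. DESeq2 gave 1 for doxorubicin in cells labelled intact and 2 for the difference. Asking for a 2-fold change left 2 for doxorubicin in cells labelled deleted and 5 between labels in doxorubicin, by its own construction. For the difference, limma-voom, the replicate block and leaving out the 2 libraries of the highest share gave 0, and removing the GC trend gave 2. Leaving out each library gave 8 to 15, 0 to 0, 2 to 9, 7 to 15 and 0 to 6 calls, in the order above. The 15 came without replicate 1 of deleted DMSO in the first comparison and without replicate 2 of deleted DMSO in the fourth. For the difference, 6 came without replicate 1 of deleted DMSO and 2 without replicate 1 of intact DMSO. Leaving out replicate 2 or 3 of intact DMSO, replicate 2 of deleted DMSO, replicate 1 of intact doxorubicin or any 1 of the deleted doxorubicin libraries gave 0. Without the 2 libraries of the highest share, 8 of 27 values changed sign in DMSO, and 2 of these were then past the threshold, MT-RNR2 at -0.41 and MT-CYB at -0.48. In cells labelled deleted 15 of 27 doxorubicin values changed sign, with 0 past the threshold by edgeR.

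The mitochondrial share, counted over the 13 mRNAs only, was 2.48% in intact DMSO and 2.68% in deleted doxorubicin, by its construction. Leaving out 1 library gave 2.95 to 3.38% in intact DMSO, 3.01 to 5.12% in deleted DMSO, 3.37 to 4.56% in intact doxorubicin and 3.14 to 3.28% in deleted doxorubicin. Same-numbered libraries of different groups had correlations of their deviations of -0.187 to 0.110 (median -0.001). Those of different number had -0.228 to 0.331 (median 0.004), so no closer match by number was seen. The deviations also carry GC trends of single libraries, so this check cannot exclude a pairing. With the replicate block 8, 0, 5, 8 and 0 genes were called. Genes at 0 were below 0.0303 to 0.0454 CPM at these depths.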
